A study of Mus musculus with 10 samples.

Results

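Narrow peaks of YTHDC1 binding that lay in protein-coding genes without any m6A peak were examined in mouse embryonic stem cells. The members were chosen by peak width and position alone, as the YTHDC1 peaks of 1000 bp or less whose midpoint fell in the span of a protein-coding gene (the shortest span if several) that held no midpoint of an m6A peak from either Mettl3 genotype. This rule gave 5545 peaks in 2809 genes, out of 30992 YTHDC1 peaks in all, 26084 peaks of 1000 bp or less and 20578 of these in protein-coding genes. The other 15033 narrow peaks in protein-coding genes lay in 5875 genes whose span held an m6A midpoint, and they served as the comparison. Genes with and without an m6A midpoint are called marked and unmarked below. Unmarked means only that neither list has a peak midpoint there, not that the RNA carries no m6A.

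YTHDC1 was measured in 1 pull-down of RNA with Halo-tagged YTHDC1 (RNA immunoprecipitation, RIP) and 1 input, both of total RNA from cells with Halo fused to the endogenous Ythdc1 gene (knock-in). The m6A peaks came from immunoprecipitates of polyA RNA, 2 from Mettl3 wild-type and 2 from Mettl3 knockout cells, each with an input (10 samples in all). The growth protocol describes male embryonic stem cells derived from the inner cell mass of a 129 mouse strain and grown in serum and LIF without feeders. How the Mettl3 knockout was made, whether it is 1 clone and whether replicates were separate cultures is not in the labels. Knockout samples carry a cell type label that says WT, and the grouping here follows their titles. Cells with Halo-GFP, the pull-down control named in the protocol, were not analysed here. Whether the YTHDC1 peaks were called against the input or against that control is not given in the sources used. The lists give positions only, with no height, read count, strand or value per replicate. No difference below can be set against a spread between replicates, read depth is unknown, and every interval and p-value below is for counting error within 1 list.

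YTHDC1 is the nuclear member of the YTH family, which recognises N6-methyladenosine (m6A) through an aromatic pocket of its YTH domain, and it is known for roles in splicing, RNA export and the silencing of retrotransposons on chromatin. METTL3 is the catalytic subunit of the complex that writes m6A on nascent polymerase II transcripts, most often in long internal exons and near stop codons. Per the protocol in the labels the pull-down used no nuclease and no fragmentation of the RNA, so a peak need not be the place of contact. The labelled cell type was checked first. Of 10 stem cell genes (Pou5f1, Sox2, Nanog, Klf4, Esrrb, Zfp42, Tdgf1, Fgf4, Utf1 and Dppa5a), 7 held a narrow YTHDC1 peak and 9 an m6A midpoint, and 0 were among the unmarked genes with a peak. Over all coding genes, 37.0% held an m6A midpoint and 12.8% were unmarked genes with a peak. A narrow YTHDC1 peak lay in 72.6% of all marked and 20.4% of all unmarked genes. Pou5f1 was marked by the knockout list alone. Peaks are not expression, so these counts are a check of the label in the peak lists alone.

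The sequences below show starts with a YTHDC1 peak edge close by, in genes chosen for that closeness. Each line gives the 30 bases before and the 30 bases from an annotated transcription start, read 5′ to 3′ on the gene's own strand from RefSeq (GRCm38.p6, whose coordinates are those of mm10). Capitals mark the bases under the YTHDC1 peak. They are the 8 genes with the most peaks among those where a peak edge lay less than 30 bases from a start (ties in order of that distance), and they show how close the edges were.
Faf1 (chr4:109676597-109676656, plus strand): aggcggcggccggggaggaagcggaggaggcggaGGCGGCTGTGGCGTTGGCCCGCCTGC
Cenpa (chr5:30666856-30666915, plus strand): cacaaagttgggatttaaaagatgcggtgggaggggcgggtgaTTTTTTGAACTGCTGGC
Fggy (chr4:95557477-95557536, plus strand): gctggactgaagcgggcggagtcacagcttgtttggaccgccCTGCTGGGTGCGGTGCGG
Clns1a (chr7:97696627-97696686, plus strand): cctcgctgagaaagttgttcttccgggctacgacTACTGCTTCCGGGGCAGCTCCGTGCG
Ppa2 (chr3:133310080-133310139, plus strand): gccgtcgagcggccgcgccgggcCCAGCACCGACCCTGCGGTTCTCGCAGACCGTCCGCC
Ccz1 (chr5:144014824-144014883, minus strand): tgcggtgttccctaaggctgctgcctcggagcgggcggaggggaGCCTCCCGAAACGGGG
Atp6ap2 (chrX:12587729-12587788, plus strand): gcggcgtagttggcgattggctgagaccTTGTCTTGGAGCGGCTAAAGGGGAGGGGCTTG
Adipor1 (chr1:134415634-134415693, plus strand): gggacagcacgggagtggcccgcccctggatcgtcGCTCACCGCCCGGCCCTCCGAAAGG

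In Faf1, which encodes a ubiquitin-binding adaptor of the Fas pathway, the peak began 4 bases after the start, and in Clns1a, which encodes an assembly factor of spliceosomal snRNPs, it also began 4 bases after it. In Adipor1, an adiponectin receptor gene, it began 5 bases after it. In the carbohydrate kinase gene Fggy the distance was 12 bases, in Cenpa, the centromeric histone H3 variant, 13, and in Ccz1, an activator of Rab7, 14. In Atp6ap2, an accessory gene of the vacuolar proton pump, the peak edge lay 2 bases before the start, and in Ppa2, a mitochondrial pyrophosphatase gene, 7 bases before it. All told, 255 of the peaks touched a window from 250 bases before to 50 bases after a start of their own gene, in 254 genes out of 2242 with a window in the table. The peak edge that faces upstream lay at a median of 5 bases after the start (quartiles 36 bases before and 23 after), 206 of the 255 edges (80.8%) were within 50 bases of it, and 19 peaks lay wholly before it. Since a peak had to touch the window, an edge after the start could not lie over 50 bases from it, and 139 of the edges were at or after the start. The median and the 80.8% are therefore partly set by this choice and are a description. The letters GGAC, the most common form of the m6A motif, were found on either strand in 95.3% of the 255 windows and in 89.5% of all 21263 windows of protein-coding genes. Within the 50 bases after the start, read on the coding strand alone, it was found in 19.6% of the touched windows, and the share in all windows differed from this by less than 1 percentage point. The median GC content was 62.3% in the touched windows and 56.3% in all. A match is a description of the letters and not a methylated site.

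MicroRNA sequences show peaks inside a coding span that cannot be given to the coding gene. Nlrp12, which encodes a pattern recognition receptor on the minus strand of chromosome 7, held 5 of the peaks, all in the last 8% of its span (first midpoint at 92.0%, last at 99.6%). Of these, 3 overlapped hairpins of the miR-290 cluster, the microRNAs best known for their abundance in mouse embryonic stem cells: Mir290a with its antisense partner Mir290b (peak chr7:3218653-3218882, 230 bp), Mir291b (chr7:3219485-3219768, 284 bp) and Mir293 (chr7:3220382-3220586, 205 bp). Mir290a, Mir291b and Mir293 lie on the plus strand, opposite to Nlrp12, and the peaks carry no strand. The mature 3′ arms are printed with the seed (bases 2 to 8) in capitals.
mmu-miR-290a-3p: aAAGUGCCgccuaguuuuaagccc
mmu-miR-291b-3p: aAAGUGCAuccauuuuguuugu
mmu-miR-293-3p: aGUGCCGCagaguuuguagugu
The bases of these 3 arms all lay under a peak. The seeds of miR-290a-3p and miR-291b-3p share their first 6 bases and differ in the seventh. The 5′ arms of miR-290a and miR-293 have one and the same seed:
mmu-miR-290a-5p: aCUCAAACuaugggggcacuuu
mmu-miR-293-5p: aCUCAAACugugugacauuuug
Only 8 of the 22 bases of miR-290a-5p and 0 of the 22 of miR-293-5p were under a peak. Which of the overlapping genes these peaks belong to cannot be told apart without strand.

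Other small RNAs lay under the peaks as well. Annotated small nucleolar RNAs, which guide chemical modification of ribosomal RNA and are mostly cut from introns of their host genes, were touched by 16 of the 5545 peaks (0.289%, exact 95% binomial interval 0.165 to 0.468%) and by 18 of the 15033 comparison peaks (0.120%, 0.0710 to 0.189%). The 16 peaks lay in 14 host genes. In Rpl13a, a ribosomal protein gene, separate peaks touched Snord35a (all 89 bases) and Snord33 (60 of 82 bases). Snord17 in Snx5, a sorting nexin gene, was covered for all 221 bases and Snora78 in Rps2 for all 157. Hspa8, which encodes the constitutive HSP70 chaperone, had a peak over Snord14e (85 of 91 bases), Tpt1, which encodes the translationally controlled tumour protein, one over part of Snora31 (38 of 112 bases), and Atp5b one over the end of Snord59a (23 of 75). MicroRNA hairpins were touched by 13 peaks (0.234%, 0.125 to 0.401%) in 11 genes and by 16 comparison peaks (0.106%, 0.0608 to 0.173%). Small nuclear RNAs were touched by 1 peak against 11 comparison peaks, and transfer RNAs by 0 (exact interval up to 0.0665%) against 1. These shares were not tested, and they did not all go one way. The peak over Snord33 in Rpl13a also touched a microRNA hairpin, Mir5121, for 6 bases.

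The peaks were narrow throughout. Their median width was 200 bp (5th to 95th percentile 83 to 357 bp, range 11 to 943 bp), and 1748 of them (31.5%, 30.3 to 32.8%) were exactly 200 bp wide. Comparison peaks had the same median (82 to 356 bp), and 30.2% (29.5 to 31.0%) of them were exactly 200 bp wide. Width is part of the rule and was not tested. Just inside the limit were peaks in Hs3st4, a heparan sulfate sulfotransferase gene (943 bp), in the orphan receptor gene Gpr20 (930 bp) and in Aldh1a1, a retinal dehydrogenase gene (915 bp). Just outside it were peaks in Adgrb3, an adhesion receptor gene (1006 bp), in the cytochrome P450 gene Cyp2c66 (1022 bp) and in Dpyd, which encodes dihydropyrimidine dehydrogenase (1046 bp).

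The unmarked genes with a peak were long. Their median span was 29.2 kb (5th to 95th percentile 3.24 to 374 kb), beside 27.9 kb (3.72 to 181 kb) for marked genes with a peak, 9.92 kb for genes with neither an m6A midpoint nor a narrow YTHDC1 peak, and 17.2 kb for all 21887 protein-coding genes. The medians of both peak-bearing groups were close, and they parted in the upper tail. The longest unmarked genes with a peak were Dmd, which encodes dystrophin (2390 kb, 6 peaks), Lsamp, a neural adhesion gene (2197 kb, 1 peak), Dlg2, a synaptic scaffold gene (1973 kb, 4 peaks), Fhit, a fragile-site gene (1612 kb, 3 peaks), and Ctnna3, an alpha-catenin gene (1574 kb, 1 peak). In Dmd all 6 peaks lay in the 3′ part of the span, the first midpoint at 56.3% and the last at 99.9%, 2557 bp from the 3′ end. The shortest were the histone genes H4c17 (405 bp), H4c18 (406 bp), H4c11 (423 bp), H2bc1 (432 bp) and H4c8 (435 bp), with 1 peak each. These single peaks covered from 66.0% of the span in H4c8 to 82.0% in H4c18, and the 465 bp peak of H2bc1 was wider than the gene. Gene length bears on whether a span holds an m6A midpoint and on whether it holds a YTHDC1 midpoint, so it is described and not tested.

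Of all protein-coding genes, 2809 (12.8%) were unmarked genes with a peak, and of the 13798 unmarked genes they made up 20.4%. By contrast 5875 of the 8089 marked genes (72.6%) were given a narrow YTHDC1 peak. The share of unmarked genes with a peak rose with span, from 261 of 4164 genes under 5 kb (6.27%, 5.55 to 7.05%) and 273 of 1882 genes of 5 to 10 kb (14.5%, 12.9 to 16.2%) to 417 of 1276 genes of 50 to 100 kb (32.7%, 30.1 to 35.3%) and 553 of 1470 genes of 100 kb and over (37.6%, 35.1 to 40.2%). In marked genes it rose from 54.8% to 83.6% over the same bins, so at every length the marked genes had the larger share. A longer span has more room for a peak midpoint, and how far this moves the shares was not tested. Peaks per gene also rose. Unmarked genes with a peak held 1.38 peaks each under 5 kb and 2.09 at 100 kb and over, marked ones 1.53 and 3.67. Per 100 kb of span the density under 5 kb was 47.6 peaks in unmarked and 47.7 in marked genes, and at 100 kb and over it was 0.654 and 1.73. These densities count only genes with at least 1 peak, which fixes a floor in short genes. The files give no expression, and how far the RNA level of the genes moves with these shares was not tested.

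**Figure D1:**
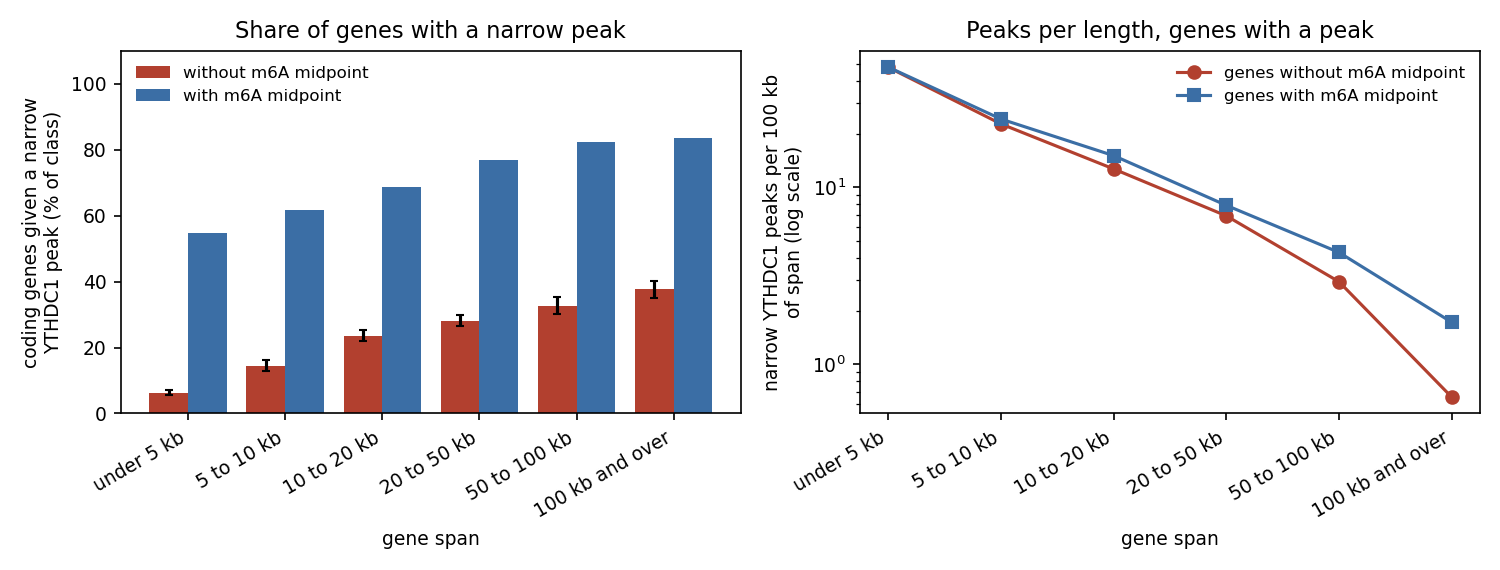
Left, share of coding genes given a narrow YTHDC1 peak (%, y axis) by gene span (x axis), for genes without (red, exact 95% binomial interval) and with (blue) an m6A midpoint; right, narrow peaks per 100 kb of span on a log scale in genes with at least 1 peak. The red share rises from 6.27% to 37.6% and stays below the blue one, while the densities are alike under 5 kb (47.6 and 47.7) and lower in unmarked genes in the other bins (0.654 against 1.73 at 100 kb and over).

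Most of the unmarked genes with a peak held a single one. A count of 1 was found in 1541 of the 2809 genes (54.9%), of 2 in 619, and of 5 or more in 187 (6.66%). Marked genes with a peak had a mean of 2.56 peaks against 1.97, 36.5% of them held 1 peak and 763 held 5 or more. The 280 genes with the most peaks held 28.8% of the peaks. Neighbouring peaks of a gene were a median of 5.06 kb apart (2736 pairs), and 18.4% of the pairs were less than 1 kb apart. In marked genes the median was 5.95 kb and the share 16.3%.

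The genes with the most peaks differed widely in length. Hells, a chromatin remodeller needed for DNA methylation of repeats, held 17 peaks in 40.2 kb, spread from 2.81% to 99.5% of the span, the widest of 439 bp (chr19:38965023-38965461). Rad51b, a gene of homologous recombination, also held 17, in a span of 551 kb, and 13 of these lay in its first 40%. Top2a, the DNA topoisomerase that separates sister chromosomes, held 14 in 31.3 kb, with 4 in the first 8% of the span and the widest of 515 bp among them (chr11:99021703-99022217). Trpm7, an ion channel fused to a kinase, held 14 in 84.7 kb, from 0.204% to 99.4% of the span. Faf1 held 12 in 287 kb, one at the start shown above and 10 beyond the middle of the span. Cenpa held 11 in only 7.96 kb, 1.38 per kb, which covered 26.6% of the span. Kat2b, a histone acetyltransferase gene (106 kb), Rbpms, an RNA-binding protein gene (147 kb), and the fragile-site oxidoreductase gene Wwox (913 kb) held 11 each, and Ect2, the exchange factor that starts cytokinesis (57.0 kb), held 10. Another 5 genes, named here after their counts were seen because they complete the 15 genes with 10 or more, had 10 each: the cohesin subunit gene Stag1, Fubp1, Fggy, Megf11 and Eif3e, a subunit of translation initiation factor 3. The 15 genes thus ranged from 7.96 kb (Cenpa) to 913 kb (Wwox).

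**Figure D2:**
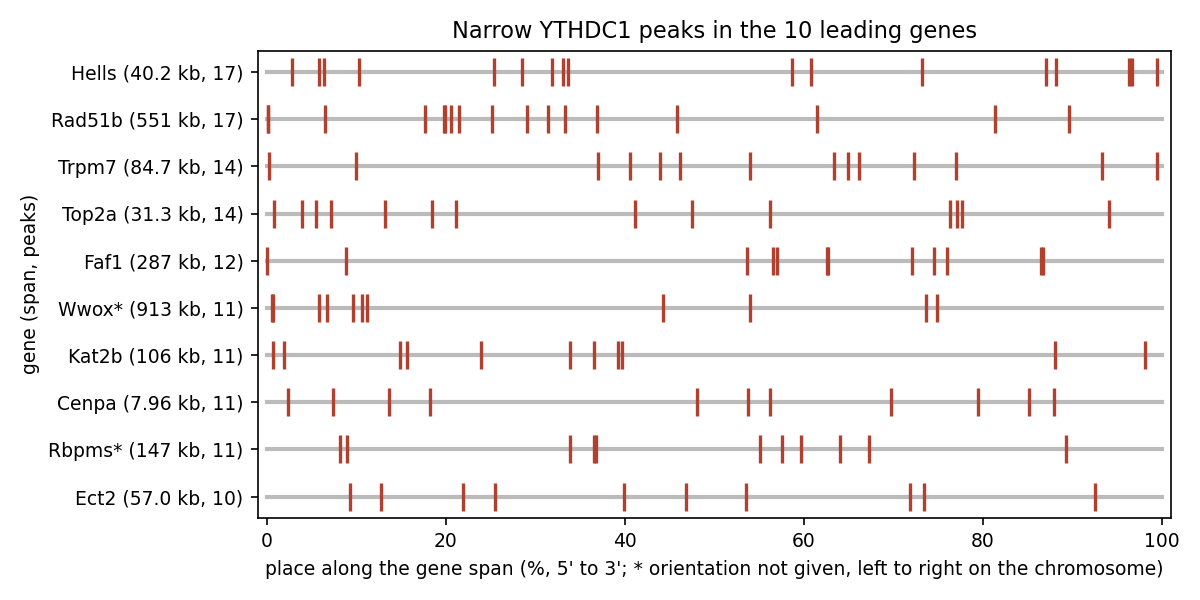
Place of every narrow YTHDC1 peak (red ticks) along the span (grey, x axis in % from the 5′ end) of the 10 unmarked genes with the most peaks, with span and number of peaks beside the symbol; for genes with an asterisk the orientation is not given and the axis runs left to right on the chromosome. Hells and Trpm7 carry peaks from end to end, whereas 13 of the 17 of Rad51b lie in the first 40% of the span.

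The order by density was led by genes under 10 kb. Among genes with at least 3 peaks, Eif1, which selects the start codon, had 1.39 peaks per kb (3 in 2.15 kb), Cenpa 1.38, Tpt1 1.31 (4 in 3.05 kb), the ribosomal protein gene Rpl7 1.27, and Eef1b2, an exchange factor of translation elongation, 1.09. Rabggtb, a subunit of the enzyme that attaches lipids to Rab proteins, had 1.06 (6 in 5.68 kb), the helicase gene Eif4a2 1.05 (7 in 6.67 kb), Slc25a4, the mitochondrial ADP/ATP carrier, 1.03, and the RNA exosome gene Exosc3 0.999. The share of the span under peaks was highest in Arl6ip4 (37.5%) and Eif1 (36.6%) among spans of 2 kb or more, followed by Rpl7 (29.5%), Tpt1 (27.5%), Cenpa, Rpl13a (26.1%), Rabggtb (24.8%), the mitochondrial chaperonin gene Hspe1 (24.4%), Slc25a4 (23.9%) and Dnajc9, which encodes a histone co-chaperone (23.4%). In Eif1 the 3 peaks lay in the middle of the gene (34.6%, 45.3% and 68.1% of the span), 686 bp or more from either end. In Tpt1 the 4 peaks lay at 32.8%, 46.4%, 64.7% and 93.6%, the last over the small nucleolar RNA named above.

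Along the span, oriented through the RefSeq strand (4388 of the 5545 peaks and 12260 of the 15033 comparison peaks), the peaks were most frequent at both ends. The first twentieth of the span, 5% of its length, held 13.1% of them, the last 8.50%, the one before it 6.63%, and the others 3.67 to 5.08%. In the first 10% of the span lay 791 of the 4388 peaks (exact interval 16.9 to 19.2%) against 2541 of the 12260 comparison peaks (20.7%). The odds ratio was 0.841 (95% interval 0.770 to 0.919), with p = 0.000119 by a two-sided Fisher's exact test and 0.000714 after adjustment over 6 measures of place. This measure was chosen after seeing the data. With 1 peak per gene, the widest, the odds ratio was 0.765 (0.678 to 0.864, exact test, p = 1.33e-05). It describes the profile that prompted it and is no independent test. By length, the same measure passed in genes of 20 to 50 kb (odds ratio 0.817, exact test, adjusted p = 0.0366 over 6 length bins) and of 50 to 100 kb (0.728, adjusted p = 0.0344), and in the other 4 bins it did not (0.825 to 0.920). On the 5′ side of the middle of the span the shares were 50.7% and 52.6%, an odds ratio of 0.928 (0.866 to 0.994, exact test, p = 0.0346, adjusted p = 0.0692), beside 52.1% over all 16648 oriented narrow peaks. The last 10% held 15.1% and 13.8% (odds ratio 1.11, 1.01 to 1.23, exact test, adjusted p = 0.0692). Neither passed after adjustment over the places. In genes of 10 to 20 kb alone the last 10% held 19.7% and 14.6% (odds ratio 1.44, 1.16 to 1.78, exact test, adjusted p = 0.00673 over 6 length bins). The last 10% was not a planned measure, and this adjustment covers the length bins of this place alone. In the other bins its odds ratio was 0.930 to 1.22, and none passed (exact test, adjusted p = 0.429).

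**Figure D3:**
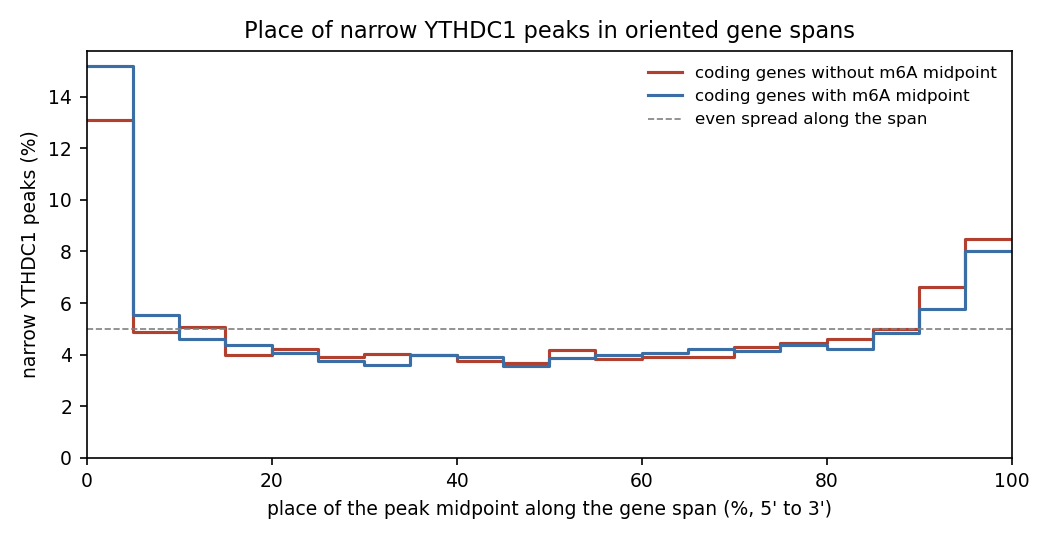
Share of narrow YTHDC1 peaks (%, y axis) in each twentieth of the gene span from 5′ to 3′ (x axis, % of the span), for unmarked (red, 4388 peaks) and marked genes (blue, 12260 peaks); the dashed line is an even spread. Both curves are highest in the first twentieth (13.1% and 15.2%) and rise again in the last (8.50% and 8.03%).

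Within 200 bp of either end of the span lay 335 of the 5545 peaks (6.04%, 5.43 to 6.70%) and 948 of the 15033 comparison peaks (6.31%, 5.92 to 6.71%), beside 6.23% of all narrow peaks in coding genes. No difference was detected (odds ratio 0.955, 95% interval 0.840 to 1.09, two-sided Fisher's exact p = 0.495). The pooled value joins length bins on both sides of 1. In genes of 10 to 100 kb it was 0.821 (0.694 to 0.971, exact p = 0.0218, not adjusted). In genes under 5 kb it was 1.45 (1.04 to 2.01, exact test, adjusted p = 0.157 over 6 length bins). None of the 6 bins passed (exact test, adjusted p = 0.157 to 0.599). An even spread along the same spans would put 2.82% and 2.18% there. Of the 4388 oriented peaks, 4.44% were within 200 bp of the 5′ end and 1.55% within 200 bp of the 3′ end. An even spread at 1 end would give 1.41%, a value computed over all 5545 peaks, oriented or not.

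Within a fixed 200 bp of the 3′ end, short genes stood apart. The ends taken separately were not planned measures. In genes under 5 kb, 39 of 293 peaks (13.3%, 9.64 to 17.7%) had their midpoint within 200 bp of the 3′ end, against 31 of 613 comparison peaks (5.06%, 3.46 to 7.10%), with an odds ratio of 2.88 (1.76 to 4.72, exact adjusted p = 0.000170 over the 6 length bins). Of these 39 peaks 13 lay in histone genes, 6 in cytosolic ribosomal protein genes and 20 in other genes. Without the histone genes, a setting chosen after seeing the data, the shares were 9.81% and 4.79% (odds ratio 2.16, 1.25 to 3.75, exact test, p = 0.00643). In the last 10% of all spans under 5 kb, a measure that scales with length, the shares were 10.9% and 9.14%. No difference passed there (odds ratio 1.22, 0.771 to 1.93, exact test, adjusted p = 0.429 over 6 length bins). A fixed 200 bp is a larger part of a shorter span, and no even spread was computed for this bin. In the other length bins no difference at the 3′ end passed (adjusted p = 0.642 to 0.711, exact test), and at the 5′ end none passed in any bin (adjusted p = 0.461 to 0.722).

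**Figure D4:**
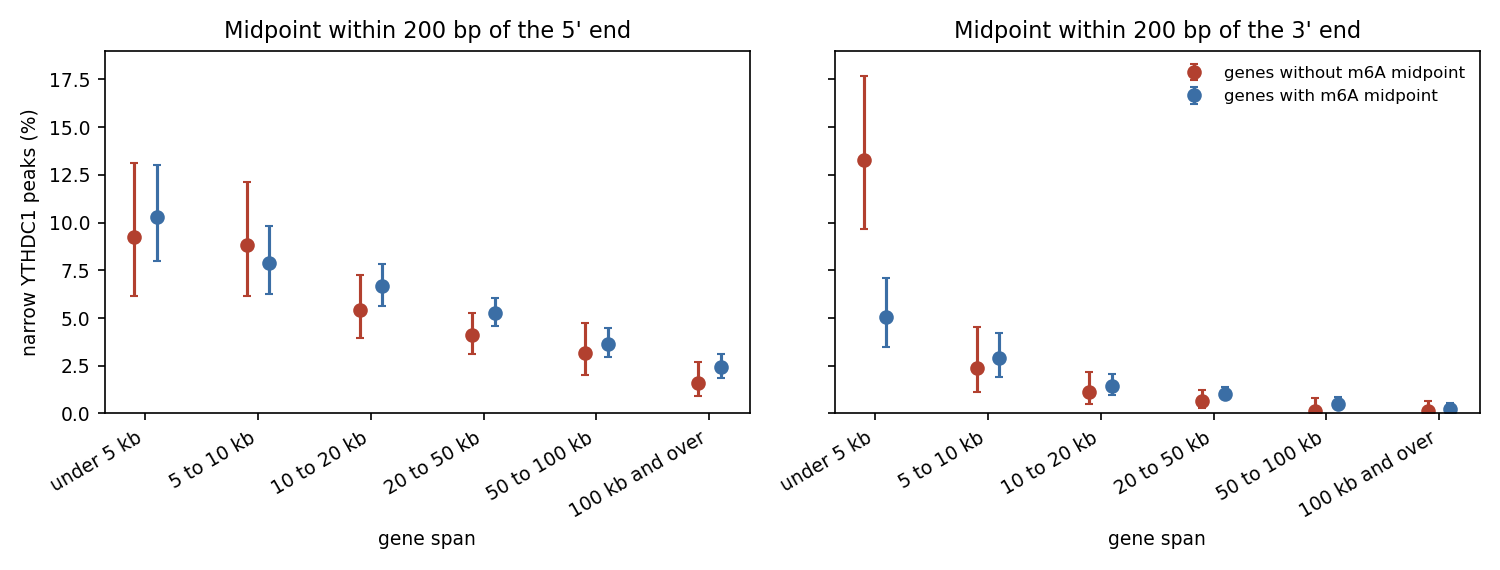
Share of narrow YTHDC1 peaks (%, y axis, exact 95% binomial intervals) whose midpoint lay within 200 bp of the 5′ end (left) or 3′ end (right) of the gene span, by gene span (x axis), in unmarked (red) and marked (blue) genes. The groups overlap at the 5′ end in every bin, and at the 3′ end they part in genes under 5 kb (13.3% against 5.06%).

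The gene lists are described by how many of their unmarked genes held a peak, beside 20.4% over all unmarked genes. They were chosen with earlier results of these data known and were not tested. The share over all unmarked genes rose with span, from 6.27% under 5 kb to 37.6% at 100 kb and over. Median spans of the lists were 3.17 kb for cytosolic ribosomal protein genes and 0.496 kb for histone genes. Lists of translation and of small nucleolar RNA hosts come first. Here, 45 of 70 unmarked cytosolic ribosomal protein genes held a peak (64.3%, 51.9 to 75.4%), led by Rpl23, Rpl22, Rps3 and Rpl7 with 4 each, and 15 of 20 mitochondrial ribosomal protein genes did (50.9 to 91.3%), led by Mrps31 with 6, while no other held more than 2. Translation factors counted 14 of 21 (66.7%, 43.0 to 85.4%), led by Eif3e with 10, Eif4a2 with 7 and Eif1ax with 5. Coding genes known to host small nucleolar RNAs counted 17 of 21 (81.0%, 58.1 to 94.6%), with 9 peaks in Taf1d, a factor of RNA polymerase I transcription, 7 in Eif4a2 and 6 in Snx5. Several genes, such as Eif4a2 and Rpl13a, stand in more than one of these lists.

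In energy and protein turnover, of 38 unmarked genes of the respiratory chain 26 held a peak (68.4%, 51.3 to 82.5%), with 6 in Ndufs4, a complex I subunit gene, and 4 each in the complex III genes Uqcrfs1 and Uqcrc1 and the complex I gene Ndufa9. Of 20 unmarked proteasome genes 15 did (50.9 to 91.3%), with 7 in Psma3, 5 in Psmb1 and 4 in Psmd12. Chaperones counted 18 of 36 (32.9 to 67.1%), with 6 each in Dnaja1 and Dnajb11 and 5 in Cct4. In glycolysis 1 of 3 unmarked genes held peaks, Ldha, the lactate dehydrogenase gene, with 5, and 17 of the 20 genes of that list were marked. Among aminoacyl-tRNA synthetases, 29 of 34 were marked, and 4 of the 5 others held peaks, Iars2 with 5 and Cars2 and Rars2 with 4 each.

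In nuclear processes the lists differed in how many genes were unmarked. Of all 21887 coding genes 13798 were unmarked, and the other 37.0% were marked. Splicing factors had 7 unmarked genes of 50, and 6 held a peak, among them Srsf3, an SR protein, with 8, U2af1, which reads the 3′ splice site, with 4, and Snrpf, a core snRNP protein, with 2. DNA repair had 6 unmarked of 54, and 5 held a peak, among them Rad51b, the ligase scaffold gene Xrcc1 with 4, Xrcc4 with 2 and Mutyh with 1. DNA replication had 9 unmarked of 40, and 6 held a peak, with 5 in Rfc4 and 4 each in Rfc5, both clamp loader genes, and in Cdc45, a helicase partner. Cyclins and cell cycle kinases counted 5 of 14 (35.7%, 12.8 to 64.9%), with 3 in Cdk2 and 2 each in Cdk6 and Ccnb1. Retrotransposon silencing had 6 unmarked of 31, and 5 held a peak: Hells with 17, Kdm1a and Cbx3 with 3 each, Trim28 with 2 and Dnmt3b with 1. Pluripotency factors had 5 unmarked of 30, and 4 held a peak: Lin28a with 3, and Dppa3, Trim28 and Stat3 with 2 each. Of 23 m6A factors 21 were marked, and neither of the 2 others held a peak. Histone genes, most of them replication-dependent genes whose messengers lack a polyA tail, counted 31 of 57 (54.4%, 40.7 to 67.6%), with 32 peaks in all. The m6A samples are labelled polyA RNA and the RIP samples total RNA, and how far this selection moves the count of unmarked histone genes was not tested.

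The remaining lists cover gene families, long genes and other lineages. Zfp zinc finger genes counted 42 of 128 (32.8%, 24.8 to 41.7%), led by Zfp991 with 8, solute carriers 56 of 251 (22.3%, 17.3 to 28.0%), led by Slc25a40 and Slc4a7 with 6 each, and ubiquitin-specific proteases 2 of 11, Usp22 with 3 and Usp25 with 1. The list of long synaptic and adhesion genes, which also holds genes known for very long introns or fragile sites such as Wwox and Fhit, counted 21 of 34 (61.8%, 43.6 to 77.8%), led by Wwox, Immp2l with 9 and Dmd, with a median span of 1125 kb among those with a peak. In that list the share is set beside 37.6% for all unmarked genes of 100 kb and over. The 2 are not matched in length, since the genes of that bin with a peak had a median span of 203 kb. The list of Zfp genes had a median span of 18.1 kb and that of solute carriers 30.2 kb. Among all unmarked genes the share was 23.6% at 10 to 20 kb and 28.1% at 20 to 50 kb. Markers of other lineages were also counted: neuroectoderm 2 of 13 (Pax6 and Map2), endoderm 2 of 16 (Hnf4a and Lama1), trophoblast 1 of 12 (Krt18), fibroblasts 1 of 13 (Fn1, with 4 peaks) and mesoderm 0 of 14 (exact interval up to 23.2%). Genes of the 2-cell-like state counted 0 of 17 (up to 19.5%). Olfactory and vomeronasal receptors, which are mostly silent outside sensory tissue, counted 7 of 1458 (0.480%, 0.193 to 0.987%), with a single peak in each, such as Olfr1494, Olfr165 and Vmn2r118. The median span was 0.951 kb over that list and 28.5 kb in the 7 genes with a peak. Among all unmarked genes under 5 kb the share was 6.27%.

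**Figure D5:**
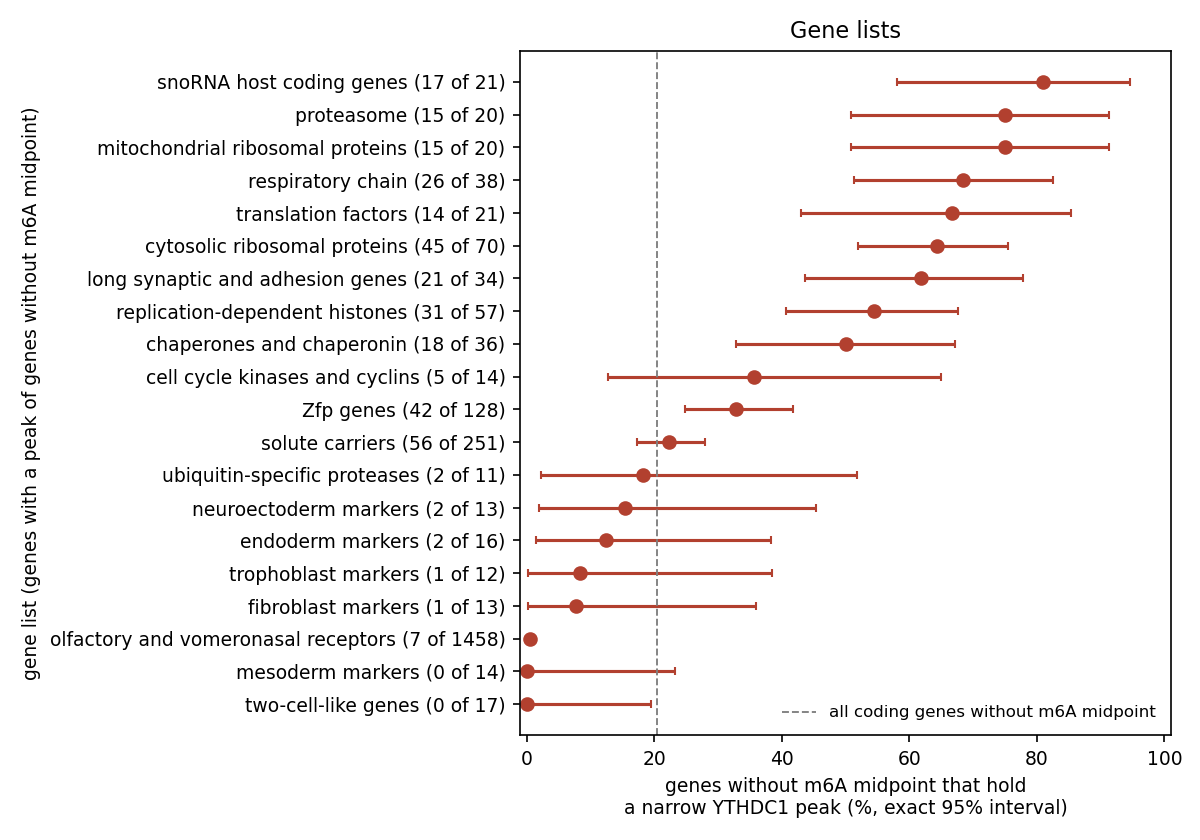
Share of the unmarked genes of each list that held a narrow YTHDC1 peak (%, x axis, exact 95% binomial intervals), for the lists (y axis) with at least 10 unmarked genes; the dashed line is the share over all unmarked coding genes (20.4%). Lists of translation, respiration and the proteasome lie between 64.3% and 81.0%, and sensory receptors at 0.480%.

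Wide YTHDC1 peaks were found in part of the same genes. The midpoint of a peak over 1000 bp lay in 219 of the 2809 unmarked genes with a narrow peak (7.80%, 6.83 to 8.85%) and in 203 of the 5875 marked ones (3.46%), beside 3.91% of all coding genes and 4.38% of unmarked ones. The odds ratio was 2.36 (1.94 to 2.88), with p = 1.95e-17 by a two-sided Fisher's exact test. Length moved with this difference. Within genes of 10 to 100 kb the odds ratio was 1.43 (0.995 to 2.06, exact test, p = 0.0619), and 171 of the 219 genes had spans of 100 kb and over, where the shares were 30.9% and 15.6% (odds ratio 2.42, 1.86 to 3.15, exact test, adjusted p = 2.32e-10 over 6 length bins). In that bin the unmarked genes were also longer, with a median of 203 kb against 153 kb, and per Mb of span they held 1.62 wide midpoints against 1.06, and 6.54 narrow midpoints against 17.3. The most wide midpoints were in Pcdh15, a cadherin gene of the inner ear (9, beside 3 narrow peaks), Nell1 (7 beside 1), and Arhgap24, Ctnna3, Gpc5 and Nkain2 (6 each), genes named here after their values were seen.

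The share of narrow coding peaks that lay in unmarked genes differed between chromosomes, from 20.4% on chromosome 11 (18.5 to 22.4%) to 36.8% on chromosome 14 (33.5 to 40.3%) and 37.6% on the X chromosome (33.4 to 42.0%), beside 26.9% overall. The X chromosome also had few marked genes (24.1% of its coding genes, against 37.0% overall and 30.4% on chromosome 14), which is part of the rule, so the share is a description. On the X chromosome 102 of 966 coding genes (10.6%) were unmarked genes with a peak, below the 12.8% over all coding genes. Atp6ap2, Diaph2, which encodes an actin nucleator, and Vbp1, a prefoldin gene, held 7 each, and Hprt, the purine salvage enzyme gene, and Dmd held 6 each. Chromosome Y held 0 narrow peaks in coding genes.

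The rule removes genes with an m6A midpoint, so the counts near m6A peaks only describe its edge. Of the 2809 unmarked genes with a peak, 36 were touched at their edge by an m6A peak whose midpoint lay outside, and 220 had an m6A midpoint within 1 kb outside the span. A total of 6 of the 5545 peaks overlapped an m6A peak by at least 1 bp, among them peaks in Ccdc77, Dync1li1, Eif4a3, H1f10 and Pet117, genes named because the count is small. The midpoint of 156 peaks lay in several coding spans and that of 220 (3.97%, 3.47 to 4.52%) also in the span of a long non-coding RNA gene, against 3.09% (2.82 to 3.38%) in marked genes. Without strand these peaks cannot be assigned to one of the overlapping genes.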

How the data were processed

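Each of the 3 deposited files holds 3 columns (chromosome, start and end of a peak), so the unit is position in bp on mm10, with no score. The submitters' processing notes name MACS2 2.1.2, the aligners STAR 2.7 and HISAT2 2.2.0, SAMtools 1.9, Trim Galore 0.6.4 and bcl2fastq. Which tool made which list, the peak threshold and any pooling of replicates: not given in the sources used here. Per the labels, the wild-type list is named by both wild-type precipitates and 1 knockout precipitate, the knockout list by the other knockout precipitate.

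Spans of 21887 protein-coding genes came from RefSeq (GRCm38.p6). Strand and start windows came from its promoter table (17492 genes). No exons were used, so exons and introns are not told apart. Positions are counted from 1. An overlap was 1 shared bp or more. Shares have exact Clopper-Pearson 95% intervals, odds ratios Wald 95% intervals, and comparisons used Fisher's exact test, two-sided, with Benjamini-Hochberg adjustment where stated (Python 3.11.15, SciPy 1.17.1, pandas 2.3.3). Peaks and genes are not replicates, and peaks of 1 gene share their source, so these p-values compare sets within 1 list. The assignment of peaks was tested on simulated data.

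The members, the gene lists and the comparisons were chosen with earlier results of these data known. Named genes were the 10 with the most peaks, the 10 with the most per kb (at least 3 peaks), the 10 with the largest covered share of spans of 2 kb or more, the 5 longest and 5 shortest, up to 3 per gene list, and the 3 peaks on each side of the width limit. Genes with provisional names counted in ranks but are not printed. A few other genes that the rule names are not reported here. Of 27 names asked for in the 2-cell-like list 21 matched, and 31 of 32 for retrotransposon silencing.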

Additional observations from a re-analysis of the deposited data

How the results depend on the processing

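The count of peaks stayed between 5389 and 5655 (2723 to 2870 genes) when the width limit was 500 or 2000 bp, when any overlap of an m6A peak with the span counted, when the whole peak had to lie inside it, with the longest span, or in exactly 1 span. With the wild-type m6A list alone it was 8536 peaks (3857 genes) and with the knockout list alone 12104 peaks (5635 genes), since fewer genes are then marked. For peaks near a span end, the odds ratio was 1.04 within 500 bp and 1.01 for peaks wider than the median. With the wild-type list alone it was 1.06. These values lie on the other side of 1, but each has an interval that includes 1. In genes of 10 to 100 kb the odds ratio was 0.821 (0.694 to 0.971, Fisher's exact p = 0.0218, not adjusted). For wide peaks in the same genes it was 1.43 in genes of 10 to 100 kb (exact p = 0.0619), 2.98 for peaks over 2000 bp and 1.82 with the wild-type list alone. On the 5′ side of the middle it was 0.926 in genes of 10 to 100 kb (exact p = 0.0790) and 0.894 with 1 peak per gene (exact p = 0.0294). In the first 10% of the span it was 0.765 to 0.843 under 3 alternatives, all chosen after seeing the data. Apart from length bins, the cause of these moves was not tested. No paired analysis was possible because each list is a single table with no value per replicate, and for the same reason no sample could be left out. Depth is unknown, so a gene without a peak may lie below the callers' reach.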
